A study of Mus musculus with 4 samples.

Results

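The antioxidant genes described here are 32 genes of glutathione and thioredoxin metabolism, peroxide and superoxide removal, iron storage and their regulator NRF2, chosen by gene symbol. All 32 were found among the 22013 genes of the table, with 1 row each. RNA-seq of polyadenylated RNA was made from mouse blastocysts, the preimplantation embryos with trophectoderm on the outside and epiblast and primitive endoderm within. The knockout group carries the genotype C57BL/6 Ywhaz knockout, made by CRISPR-Cas9 at the zygote stage, and the control group is C57BL/6 wild type. Each group holds 2 libraries, and each library is a pool of 5 embryos cultured in vitro, from superovulated females of the same strain, all in 1 labelled batch. The labels describe the control embryos in different places as untreated, as given Cas9 protein alone and as given a control guide RNA, and the knockout columns carry the prefix si although the labels describe gene editing. Ywhaz encodes the adaptor protein 14-3-3 zeta. Because each pool mixes embryos and lineages, fewer cells of a type and less RNA per cell cannot be told apart.

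Cells keep reactive oxygen in check with a few linked systems. Superoxide dismutases turn superoxide into hydrogen peroxide, which catalase, glutathione peroxidases and peroxiredoxins then reduce. Glutathione and thioredoxin carry the electrons for the glutathione peroxidases and peroxiredoxins, and the reductases of glutathione and thioredoxin draw them from NADPH. The transcription factor NRF2, encoded by Nfe2l2, is held low by KEAP1 and, when released, pairs with small MAF proteins at antioxidant response elements near genes of glutathione synthesis, thioredoxin reduction, quinone reduction and haem breakdown. Cultured preimplantation embryos meet more oxygen than embryos in the oviduct.

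The promoter windows of 4 genes named in the results below are shown. Gstp1 and Gstp2 are neighbouring copies of the pi-class glutathione transferase with lower values in both knockout pools. Gclm is a glutathione synthesis gene with higher values in both. Srxn1 is a target of NRF2 with a low value in knockout pool 1. The windows are from RefSeq on GRCm38.p6, run 5′ to 3′ on the gene's own strand, and reach from 250 bases before the start site to 50 after it. They lie at chr19:4037863-4038162 on the minus strand for Gstp1, at chr19:4042172-4042471 on the minus strand for Gstp2, at chr3:122245307-122245606 on the plus strand for Gclm and at chr2:152105274-152105573 on the plus strand for Srxn1. Capitals mark every match, on either strand, to TGACNNNGC or TGAGNNNGC, 2 spellings of the core of the antioxidant response element. The second spelling and the genes shown were chosen after the values were seen. Only windows with at least 1 match were shown, so a match in each of the 4 was fixed beforehand. Gstp1 and Gstp2 match by the second spelling alone. The window of Gss, also higher in both knockout pools, holds 0 matches.
Gstp1: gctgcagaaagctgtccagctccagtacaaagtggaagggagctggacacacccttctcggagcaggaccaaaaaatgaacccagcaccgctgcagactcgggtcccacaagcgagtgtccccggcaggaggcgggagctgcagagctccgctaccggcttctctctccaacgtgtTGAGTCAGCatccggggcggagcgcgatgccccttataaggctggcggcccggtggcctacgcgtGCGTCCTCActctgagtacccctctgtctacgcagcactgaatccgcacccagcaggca
Gstp2: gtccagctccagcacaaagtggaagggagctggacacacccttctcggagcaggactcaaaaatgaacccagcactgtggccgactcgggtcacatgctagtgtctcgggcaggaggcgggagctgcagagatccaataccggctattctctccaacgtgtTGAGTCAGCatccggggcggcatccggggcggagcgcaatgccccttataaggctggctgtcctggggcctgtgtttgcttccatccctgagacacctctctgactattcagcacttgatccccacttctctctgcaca
Gclm: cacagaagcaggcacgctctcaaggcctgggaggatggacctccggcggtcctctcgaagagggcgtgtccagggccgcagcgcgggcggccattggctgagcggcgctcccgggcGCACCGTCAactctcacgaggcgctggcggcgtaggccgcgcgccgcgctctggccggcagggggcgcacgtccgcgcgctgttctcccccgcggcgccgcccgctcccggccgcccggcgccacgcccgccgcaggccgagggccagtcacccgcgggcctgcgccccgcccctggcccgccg
Srxn1: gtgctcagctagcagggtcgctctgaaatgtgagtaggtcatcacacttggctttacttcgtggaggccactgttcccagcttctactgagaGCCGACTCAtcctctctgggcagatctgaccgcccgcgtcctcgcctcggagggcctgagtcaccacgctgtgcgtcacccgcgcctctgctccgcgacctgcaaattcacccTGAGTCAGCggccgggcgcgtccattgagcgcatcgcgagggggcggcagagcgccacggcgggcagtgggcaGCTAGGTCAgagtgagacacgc
Annotated Gstp2 transcripts on GRCm38 begin at several points: Gstp2-201 begins at 4042263, inside the window shown, while the longest begins at 4046023, so that for it the window lies within the gene. Both Gstp windows hold TGAGTCAGC on the gene's strand, from 74 to 66 bases before the start site in Gstp1 and from 89 to 81 in Gstp2, and 86.2% of 282 aligned bases are identical between these windows. Gstp1 holds a further match on the other strand next to its start site. GENCODE puts the 5′ end of Gstp1 at 4037985, inside the window shown. By that annotation TGAGTCAGC lies at the start of Gstp1 and the further match within the gene. Srxn1 holds the same letters as the Gstp windows from 45 to 37 bases before its start site and 2 further matches on the other strand. Gclm holds 1 match on the other strand, TGACGGTGC, from 134 to 126 bases before its start site. Windows were found for 27 of the 32 genes, and 9 of these 27 (33.3%) hold at least 1 match to either spelling, against 30.8% of all 27025 genes with a window. For TGACNNNGC alone the counts were 7 of 27 (25.9%) against 14.0%, and the 7 genes were G6pdx, Gclm, Nfe2l2, Prdx1, Sod1, Srxn1 and Txnrd1. For TGAGNNNGC alone they were 4 of 27 (14.8%) against 19.8%. These are matches of letters and not measured binding.

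The values are FPKM, fragments scaled for transcript length and for sequencing depth, so that levels of different genes can be compared. The spacing of the lowest values put the depth at an estimated 17200000 to 18450000 fragments per library, so that a 2 kb transcript at 1 FPKM stands for about 34.4 to 36.9 fragments. Ywhaz itself measured 143 and 123 FPKM in control libraries 1 and 2, and 32.7 and 98.2 FPKM in knockout libraries 1 and 2, so the knockout pools differ widely in the targeted transcript. Summed FPKM of the 5 epiblast markers found was 200.2 and 189.5 in control and 292 and 315 in knockout libraries. Most of this rise came from Pou5f1 (115 and 121 against 179 and 201 FPKM) and Nanog (55.8 and 55.6 against 82.8 and 80.2 FPKM). Sox2, Klf2 and Fgf4 overlapped between the groups. Summed FPKM of the 7 trophectoderm markers was 187 to 237 in control and 225 to 349 in knockout libraries. Of these markers 5 had a fold change above 0 and 2 below. Krt18 and Tfap2c were higher in both knockout pools than in either control pool. Elf5 was lower in both, at low levels (1.72 and 1.65 against 0.793 and 0.649 FPKM). Summed FPKM of 6 primitive endoderm markers was 407 to 565 in control and 431 to 642 in knockout libraries. Dab2 carried most of the primitive endoderm sum, at 363 to 509.9 FPKM in control and 394 to 599 FPKM in knockout libraries. Of the 5 primitive endoderm markers tested 4 were below 0 and none passed. Sparc (12.7 and 6.65 against 2.17 and 5.41 FPKM) was lower in both knockout pools than in either control pool. The same held for Sox17 (1.13 and 2.03 against 0.521 and 0.523 FPKM) and Gata4 (1.14 and 1.24 against 0.42 and 0.573 FPKM). Both lie at low levels, and Gata4 was too low to be tested. Of 8 cumulus and granulosa markers, the cells that surround the egg, none reached 1 FPKM, and Has2 and Cyp19a1 were listed at 0 throughout. Summed FPKM of 6 blood and macrophage markers, mostly Cd68, was 21.4 and 32.7 in control and 32.5 and 20.5 in knockout libraries. For 5 fibroblast markers, mostly Thy1, it was 5.44 and 2.96 against 2.58 and 2.24. For 6 oocyte markers, mostly Zp3, it was 8.13 and 11.1 against 12.3 and 8.69. Whether other cells were in the pools was not tested. Of a list of 7 transcripts with few poly(A) tails, chosen to follow RNA quality, 5 were found, all of them histone genes. They summed to 175 and 139 FPKM in control and to 91.4 and 111 FPKM in knockout libraries, with all 5 below 0 in fold change. Whether this sum reflects RNA quality here was not tested. The part of the epiblast, primitive endoderm and histone differences in the antioxidant results was not tested. The labels do not say whether pools had different parents or collection days. The p-values below therefore rest on the spread between these pools, partly borrowed from other genes at similar levels, and it may be technical.

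Blastocysts held abundant antioxidant transcripts in both groups. Together the 32 genes accounted for 2.37% and 2.07% of summed FPKM in the control pools and for 2.03% and 2.21% in the knockout pools. Ftl1 alone held 0.964% to 1.22% of summed FPKM in the 4 libraries, and the other 31 genes together held 1.02% to 1.147%. Ftl1, the ferritin light chain that packs iron with the heavy chain, ranked 5 among all 22013 genes by mean FPKM. Prdx1, the main cytosolic peroxiredoxin, ranked 87, and Gpx4, the selenoprotein that reduces lipid peroxides in membranes, ranked 119. Levels ran from Txnip, at 0.2 to 0.829 FPKM, to Ftl1, at 9108 to 10979 FPKM.

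**Figure D1:**
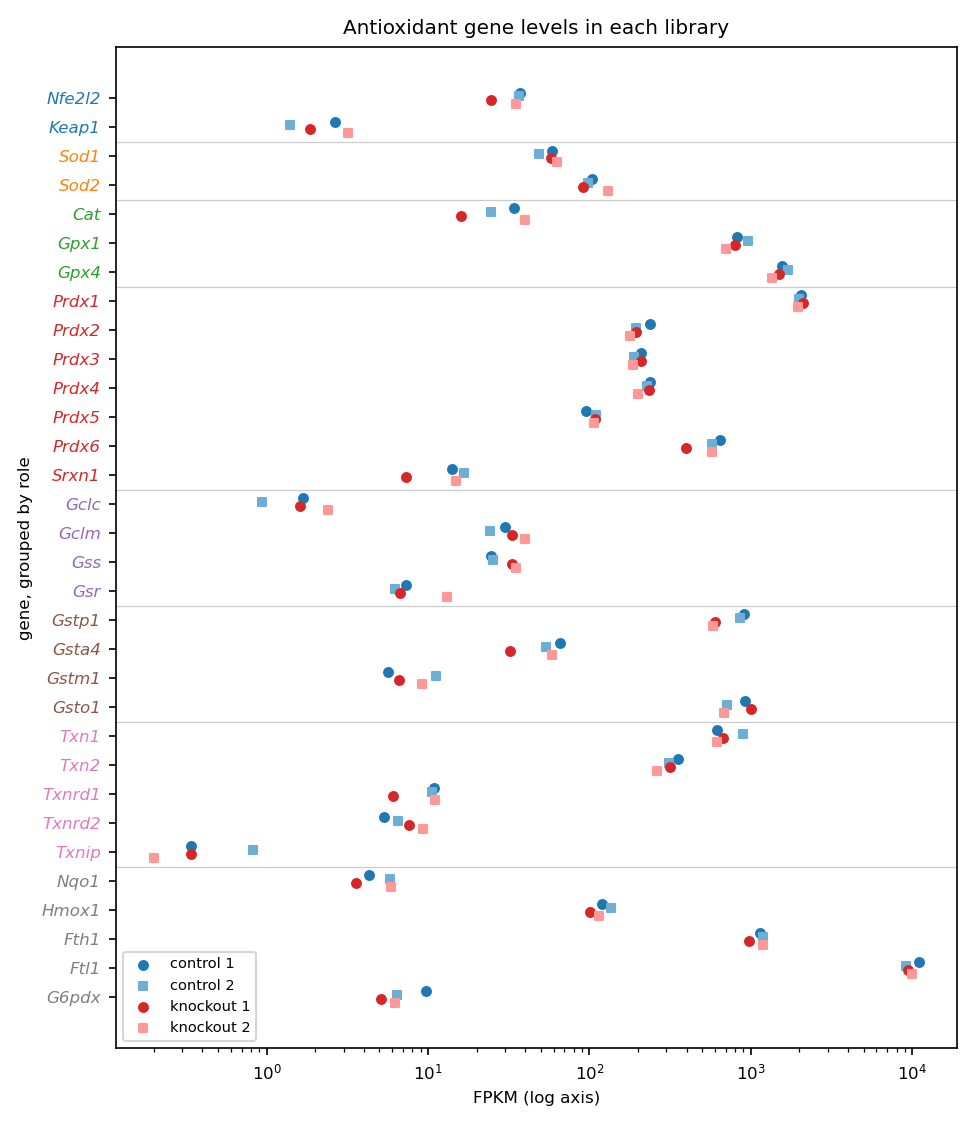
FPKM (log axis) of the 32 antioxidant genes in each of the 4 libraries, in blue for control and red for knockout pools, with names coloured by role. Ftl1 lies between 9108 and 10979 FPKM and Txnip below 1 FPKM, and for most genes the 4 libraries overlap.

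None of the antioxidant genes passed the threshold between knockout and control pools. Of the 32 genes, 31 had a mean of at least 1 FPKM and were tested with limma, an adjusted p under 0.05 being the threshold, and 0 of the 31 passed, against 0.0733% of all 9544 genes tested. Txnip, an inhibitor of thioredoxin, was too low to be tested. The targeted gene Ywhaz did not pass either, with a log2 fold change of −1.21 ± 0.39 (SE) and a limma adjusted p of 0.305. Without adjustment, 1 of the 31, Gstp1, had a limma p under 0.05, against 11.1% of all genes tested. The authors' deposited table also listed 0 of the 32 genes at an FDR under 0.05, against 0.309% of genes above 0 in any library. The fold changes, which are knockout minus control on the log2(FPKM + 1) scale throughout, were above 0 for 11 genes and below 0 for 20, and 56.0% of all genes tested were above 0. Their median was −0.10, against 0.05 for all genes tested.

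In 10 of the 31 genes all knockout values lay on one side of all control values, against 41.4% of all genes tested. Of these 10, 3 were higher in knockout pools (27.4% of all genes tested) and 7 lower (14.0% of all genes tested). The 3 higher genes were Gclm, Gss and Txnrd2, and the 7 lower genes were Nfe2l2, Gpx1, Gpx4, Prdx2, Gstp1, Hmox1 and G6pdx. This count depends on scaling: it was 6 with TPM scaling (3 higher and 3 lower; 38.0% of all genes tested), 17 with median-of-ratios scaling (5 and 12; 45.2%) and 15 with quantile normalization (6 and 9; 45.4%). Of the lower genes, Nfe2l2, Prdx2, Hmox1 and G6pdx overlapped between the groups with TPM scaling. The 95% intervals of the differences were wide for several genes. For Prdx1 the interval ran from −0.35 to 0.38, while for Srxn1 it ran from −1.196 to 0.177 and for Gsr from −0.25 to 1.11, so changes of more than 2-fold are inside it for the last 2 genes.

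**Figure D2:**
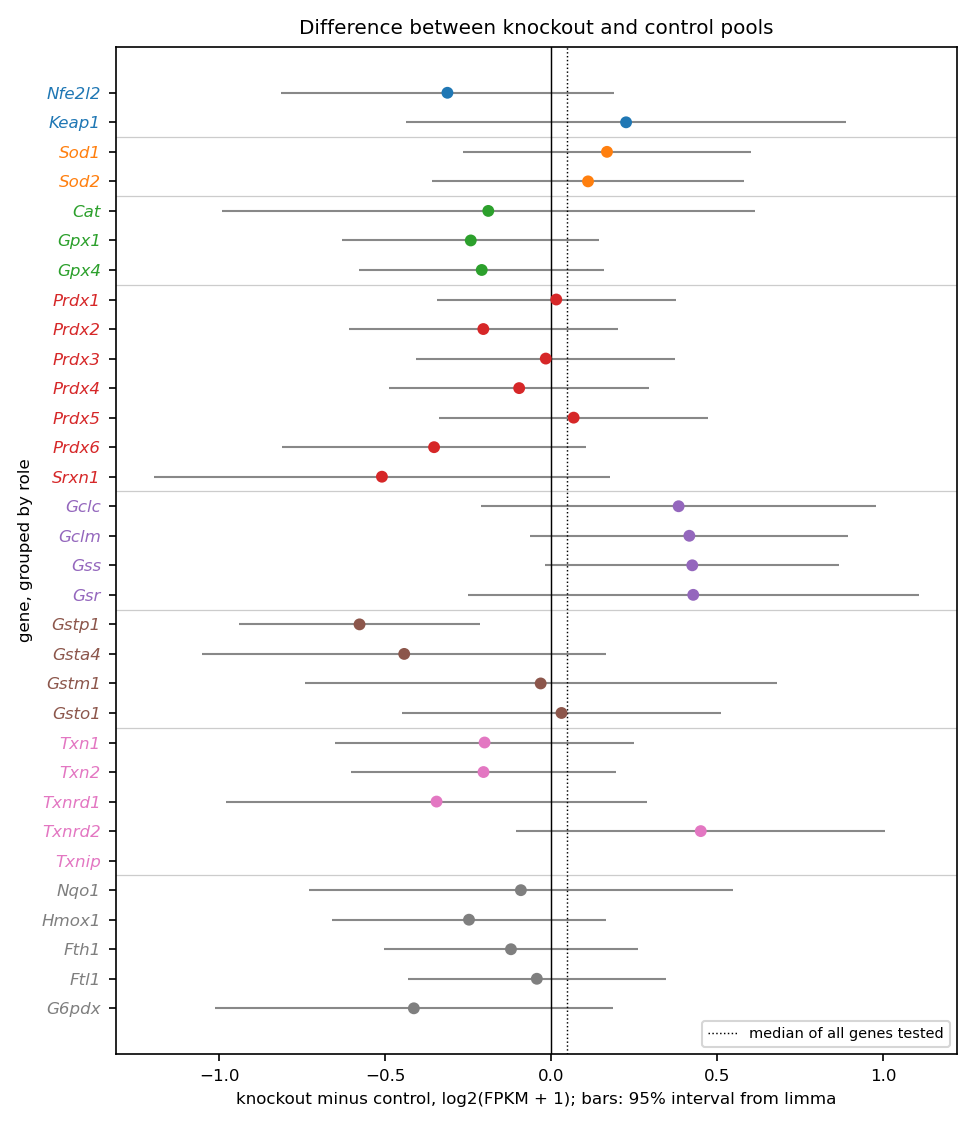
Knockout minus control difference of the 31 tested antioxidant genes on the log2(FPKM + 1) scale, with 95% intervals from limma and the median of all genes tested as a dotted line. Only the interval of Gstp1, from −0.94 to −0.22, does not reach 0, and the 4 glutathione synthesis and recycling genes all lie above 0.

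Nfe2l2, which encodes NRF2, is annotated on GRCm38 chromosome 2, minus strand, between 75675513 and 75704641. It measured 37.0 and 36.4 FPKM in control libraries 1 and 2, and 24.5 and 35.1 FPKM in knockout libraries 1 and 2. Both knockout values were below both control values, but that of library 2 by little, and with TPM scaling the groups overlapped. The means of Nfe2l2 were 36.7 ± 0.375 and 29.8 ± 7.51 FPKM (SD, n = 2 each), with a log2 fold change of −0.31 ± 0.23 (SE) and a limma adjusted p of 0.659. Keap1, the adaptor that brings NRF2 to a ubiquitin ligase for destruction, was far lower, at 2.64 and 1.41 FPKM in the control pools, against 1.85 and 3.19 FPKM in the knockout pools. Its groups overlapped (difference 0.23 ± 0.30 SE on the log2 scale, limma adjusted p = 0.824), and its direction turned when control library 2 (−0.07) or knockout library 2 (−0.05) was left out.

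The 4 genes that make or recycle glutathione all had higher means in knockout pools, and none passed the threshold. Gss, glutathione synthetase, which adds glycine in the last step, showed the tightest groups, with 24.7 and 25.3 FPKM in the control pools, against 33.0 and 34.9 FPKM in the knockout pools. Its means were 25.005 ± 0.407 and 33.9 ± 1.36 FPKM (SD, n = 2 each), 136% of control, with a log2 fold change of 0.42 ± 0.20 (SE), an interval from −0.02 to 0.87 and a limma adjusted p of 0.470. Gclm, the modifier subunit of the rate-limiting glutamate-cysteine ligase, measured 29.9 and 24.3 FPKM in the control pools, against 33.0 and 39.96 FPKM in the knockout pools. The groups of Gclm did not overlap either (difference 0.42 ± 0.22 SE on the log2 scale, limma adjusted p = 0.513).

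The catalytic partner of Gclm was much less abundant and its groups overlapped. Gclc measured 1.69 and 0.942 FPKM in the control pools, against 1.62 and 2.40 FPKM in the knockout pools (difference 0.38 ± 0.27 SE on the log2 scale, limma adjusted p = 0.649). Gsr, glutathione reductase, which regenerates the reduced form, measured 7.28 and 6.25 FPKM in the control pools, against 6.72 and 13.1 FPKM in the knockout pools. Leaving out control library 2 put the difference of Gclc at 0.149, leaving out knockout library 2 put it at 0.195, and that of Gclm was 0.271 without control library 2. For Gsr the higher mean rested on knockout library 2: its log2 fold change was 0.43 ± 0.31 (SE, limma adjusted p = 0.658), and −0.01 without that library. The median log2 fold change of the 4 genes was 0.42, against 0.05 for all genes tested. The higher values of Gss and Gclm in knockout pools were present in both pools.

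Gstp1, the pi-class glutathione transferase that joins glutathione to electrophiles, differed most from control relative to its spread. It is annotated on GRCm38 chromosome 19, minus strand, between 4035407 and 4037985. It measured 903 and 855 FPKM in the control pools, against 598 and 579 FPKM in the knockout pools. Both knockout pools stood well below both control pools, and the pools of each group were close to each other. The means were 879 ± 34.1 and 589 ± 13.4 FPKM (SD, n = 2 each), which puts the knockout mean at 67.0% of control. The log2 fold change was −0.58 ± 0.16 (SE), with an unadjusted limma p of 0.00517 and a limma adjusted p of 0.269 over all genes. In the authors' deposited table its p-value was 0.00176 and its FDR 0.221. Without any single library its fold change lay between −0.62 and −0.54, with adjusted p from 0.167 to 0.884.

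Gstp2, a tandem copy annotated on the same strand between 4040285 and 4046023, followed the same pattern with 409 and 433 FPKM in the control pools, against 225 and 282 FPKM in the knockout pools (difference −0.74 ± 0.18 SE on the log2 scale, limma adjusted p = 0.227). Of the 50-base stretches in annotated Gstp1 transcripts, 33.7% also occur in Gstp2 transcripts, so reads could be divided between these copies and their separate values are uncertain. The sum of both was 1313 and 1288 FPKM in the control pools, against 823 and 861 FPKM in the knockout pools. The share of the sum given to Gstp1 was 66.4% to 68.8% in control and 67.2% to 72.7% in knockout libraries. The summed level was lower in both knockout pools than in either control pool. Gstp3, another copy on the same chromosome that shares none of these stretches, measured 12.7 and 15.9 FPKM in the control pools, against 10.2 and 11.1 FPKM in the knockout pools.

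Among the other 3 transferases of the list, Gsta4, Gsto1 and Gstm1, the groups overlapped. Gsta4, an alpha-class enzyme that conjugates the lipid peroxidation product 4-hydroxynonenal, measured 65.4 and 54.1 FPKM in the control pools, against 32.0 and 59.1 FPKM in the knockout pools (difference −0.44 ± 0.27 SE on the log2 scale, limma adjusted p = 0.599). The low value was that of knockout library 1 alone. Gsto1, the omega-class enzyme, which also reduces dehydroascorbate, was as abundant as Gstp1, at 914 and 716 FPKM in the control pools, against 999 and 684 FPKM in the knockout pools. Its log2 fold change was 0.03 ± 0.22 (SE) and limma adjusted p 0.978, and it was −0.06 with median-of-ratios scaling. Gstm1, a mu-class enzyme, measured 5.63 and 11.3 FPKM in the control pools, against 6.62 and 9.21 FPKM in the knockout pools, and 18.9% of its 50-base stretches are shared with other genes.

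**Figure D3:**
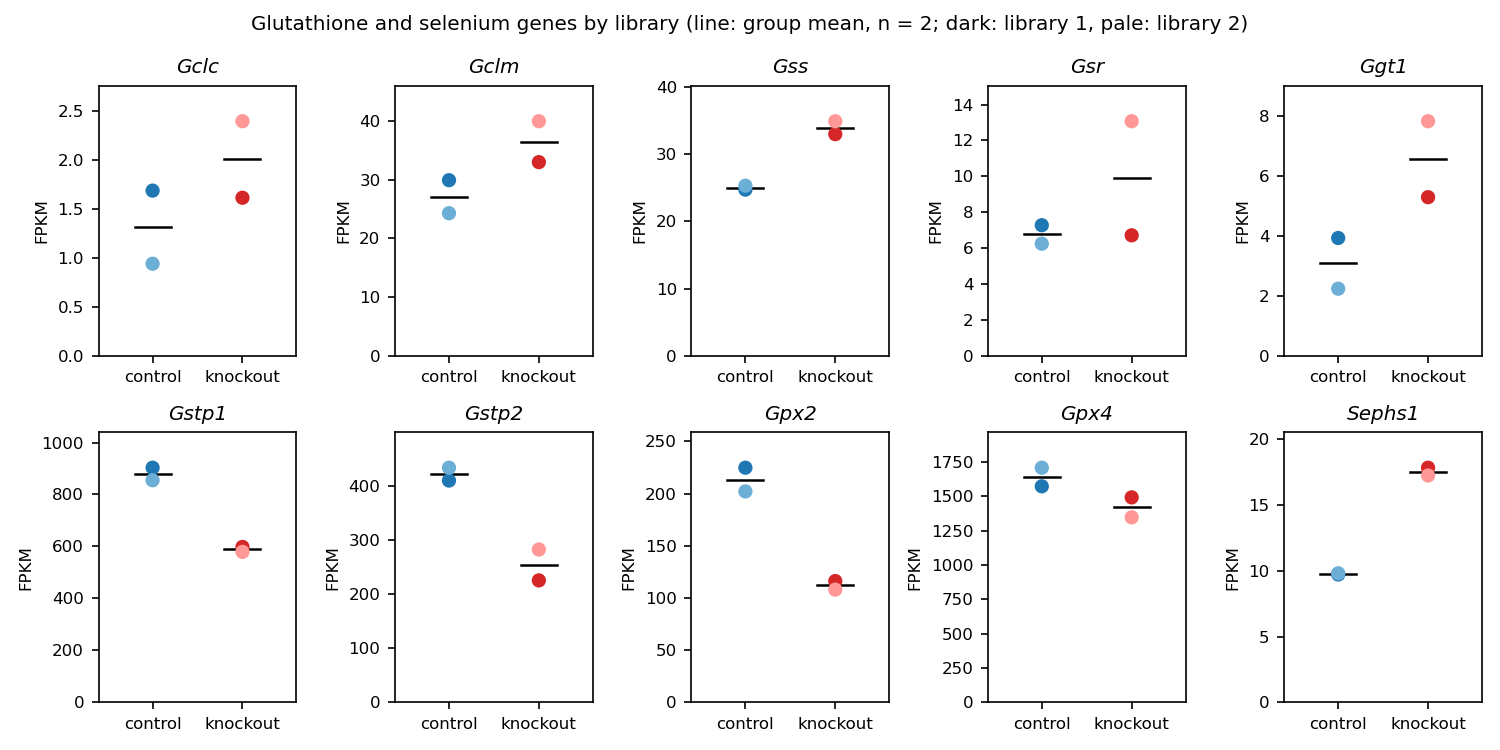
FPKM of 10 glutathione and selenium genes in the control and knockout libraries (dark points: library 1, pale points: library 2; line: group mean, n = 2), each on an axis from 0. Gss and Gclm lie higher and Gstp1, Gstp2 and Gpx2 lower in both knockout pools, for example Gstp1 at 598 and 579 against 903 and 855 FPKM.

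Both glutathione peroxidases of the list were somewhat lower in both knockout pools, and neither passed. Gpx4 measured 1571 and 1707 FPKM in the control pools, against 1491 and 1346 FPKM in the knockout pools. Its means were 1639 ± 95.7 and 1418 ± 103 FPKM (SD, n = 2 each), with a log2 fold change of −0.21 ± 0.17 (SE) and a limma adjusted p of 0.698. A copy annotated as Gpx4-ps2 shares 34.7% of the 50-base stretches of Gpx4. Gpx1, the cytosolic and mitochondrial selenoprotein that reduces hydrogen peroxide, measured 821 and 958 FPKM in the control pools, against 802 and 701 FPKM in the knockout pools (difference −0.24 ± 0.17 SE on the log2 scale, limma adjusted p = 0.658). Catalase, the peroxisomal enzyme encoded by Cat, measured 34.3 and 24.4 FPKM in the control pools, against 15.9 and 39.8 FPKM in the knockout pools. Its knockout pools were the lowest and the highest of the 4 libraries, so no common direction was measurable (difference −0.19 ± 0.36 SE on the log2 scale, limma adjusted p = 0.885).

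Superoxide dismutases overlapped between the groups. Sod1, the cytosolic copper-zinc enzyme, measured 58.3 and 48.7 FPKM in the control pools, against 57.5 and 62.7 FPKM in the knockout pools. Sod2, the mitochondrial manganese enzyme, measured 104 and 97.4 FPKM in the control pools, against 90.7 and 131 FPKM in the knockout pools. Knockout library 2 held the highest value of both genes. The log2 fold changes were 0.17 ± 0.20 and 0.11 ± 0.21 (SE), with limma adjusted p of 0.795 and 0.885. Of the 50-base stretches of Sod2, 21.0% are shared with 202 other annotated genes.

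The 6 peroxiredoxins were expressed in every library, and most differed little. Prdx1 measured 2032 and 1981 FPKM in the control pools, against 2105 and 1953 FPKM in the knockout pools, with overlapping groups and a log2 fold change of 0.02 ± 0.16 (SE, limma adjusted p = 0.987), which was −0.07 with median-of-ratios scaling. Prdx3, the mitochondrial peroxiredoxin, measured 209 and 189 FPKM against 208 and 186 FPKM, and Prdx4, that of the endoplasmic reticulum, 236 and 226 FPKM against 234 and 199.8 FPKM. Prdx5, which acts in several compartments, measured 95.01 and 110.1 FPKM against 108 and 106 FPKM. For these 4 genes the groups overlapped, and fold changes ran from −0.10 to 0.07.

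Prdx2, a cytosolic peroxiredoxin, measured 237 and 195 FPKM in the control pools, against 195 and 178 FPKM in the knockout pools, and its groups were separated by less than 1 FPKM. Prdx6, which uses glutathione instead of thioredoxin, measured 647 and 577 FPKM in the control pools, against 395 and 579 FPKM in the knockout pools. Its level in knockout library 2 lay between the control values and that in library 1 below them (difference −0.35 ± 0.21 SE on the log2 scale, limma adjusted p = 0.574). Srxn1, sulfiredoxin, which repairs overoxidised peroxiredoxins, measured 14.2 and 16.7 FPKM in the control pools, against 7.30 and 15.0 FPKM in the knockout pools. It showed the same arrangement, with knockout library 1 alone below control (difference −0.51 ± 0.31 SE on the log2 scale, limma adjusted p = 0.591).

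In the thioredoxin system the reductases, selenoproteins that keep thioredoxin reduced, had differences of opposite sign, and neither passed. Txnrd2, the mitochondrial reductase, measured 5.31 and 6.49 FPKM in the control pools, against 7.58 and 9.29 FPKM in the knockout pools, so its groups did not overlap. The means were 5.90 ± 0.834 and 8.43 ± 1.204 FPKM (SD, n = 2 each), 143% of control, with a log2 fold change of 0.45 ± 0.25 (SE) and a limma adjusted p of 0.548. Txnrd1, the cytosolic reductase and a known target of NRF2, measured 10.9 and 10.6 FPKM in the control pools, against 6.09 and 11.0 FPKM in the knockout pools (difference −0.35 ± 0.29 SE on the log2 scale, limma adjusted p = 0.712). As a share of both reductases, Txnrd1 made up 67.2% and 61.9% in control and 44.6% and 54.3% in knockout libraries, lower in both knockout pools. In knockout library 2 Txnrd1 itself, at 11.0 FPKM, was not below control, and its lower share there went with the higher Txnrd2.

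The thioredoxins themselves overlapped. Txn1, the cytosolic protein, measured 616 and 896 FPKM in the control pools, against 674 and 620 FPKM in the knockout pools. Txn2, the mitochondrial protein, measured 353 and 313 FPKM in the control pools, against 316 and 263 FPKM in the knockout pools. Their log2 fold changes were both −0.20, with limma adjusted p of 0.761 and 0.729. Txnip measured 0.338 and 0.829 FPKM in the control pools, against 0.34 and 0.2 FPKM in the knockout pools.

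Among classic targets of NRF2, Hmox1 and Nqo1 gave no common picture. Hmox1, haem oxygenase 1, which breaks haem down to biliverdin, iron and carbon monoxide, measured 119 and 137 FPKM in the control pools, against 100.2 and 115 FPKM in the knockout pools (difference −0.25 ± 0.19 SE on the log2 scale, limma adjusted p = 0.673). Its groups did not overlap but lay within 4 FPKM of each other at the nearest values. Nqo1, a quinone reductase, measured 4.29 and 5.78 FPKM in the control pools, against 3.56 and 5.93 FPKM in the knockout pools. The knockout values of Nqo1 enclosed the control values.

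Ferritin transcripts were abundant and close between the groups. Ftl1 measured 10979 and 9108 FPKM in the control pools, against 9459 and 9957 FPKM in the knockout pools. Its log2 fold change was −0.04 ± 0.17 (SE) with a limma adjusted p of 0.958, and it was 0.01 with quantile normalization. Of its 50-base stretches 50.9% are shared with 15 other annotated genes, and the copy Ftl1-ps1 measured 90.5 and 82.4 FPKM in the control pools, against 71.6 and 73.7 FPKM in the knockout pools. Fth1, the heavy chain, which oxidises iron for storage, measured 1148 and 1193 FPKM in the control pools, against 977 and 1185 FPKM in the knockout pools (difference −0.12 ± 0.17 SE on the log2 scale, limma adjusted p = 0.840). G6pdx, glucose-6-phosphate dehydrogenase, the first NADPH-producing step of the pentose phosphate pathway, measured 9.65 and 6.43 FPKM in the control pools, against 5.13 and 6.28 FPKM in the knockout pools. The difference of G6pdx was −0.154 without control library 1, −0.289 without knockout library 1 and −0.673 without control library 2. The nearest values of G6pdx differed by less than the spread within either group (difference −0.41 ± 0.27 SE on the log2 scale, limma adjusted p = 0.615).

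Prdx1, Gpx4 and Ftl1 led their families in every library. Prdx1 held 58.8% and 60.4% of summed peroxiredoxin FPKM in control and 64.9% and 61.0% in knockout libraries, while Prdx6 held 18.7% and 17.6% in control and 12.2% and 18.1% in knockout libraries. Gpx4 held 64.0% to 65.8% of both glutathione peroxidases in all 4 libraries, and Ftl1 held 88.4% to 90.6% of both ferritin chains. Summed peroxiredoxin FPKM was 3456 and 3279 in control and 3245 and 3203 in knockout libraries. Summed FPKM of Gpx1 and Gpx4 was 2392 and 2665 in control and 2293 and 2047 in knockout libraries.

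**Figure D4:**
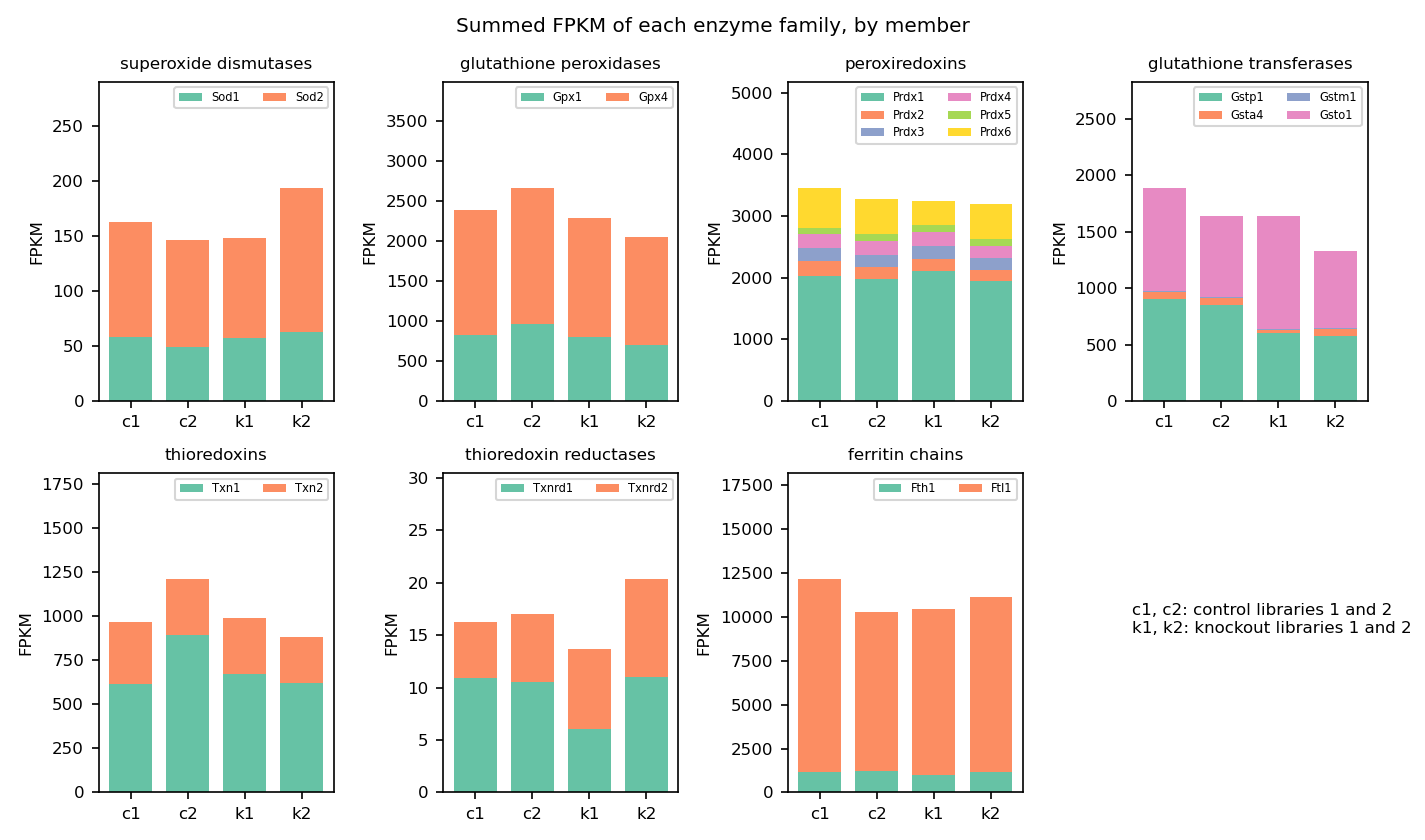
Summed FPKM of 7 enzyme families in each library (c1, c2: control; k1, k2: knockout), with bars stacked by member from 0. Prdx1, Gpx4 and Ftl1 hold the largest part of their families in every library, and the Gstp1 part of the transferases is smaller in both knockout bars (36.6% and 43.5%) than in both control bars (47.8% and 52.2%).

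The knockout pools differed from each other in several antioxidant genes. In knockout library 1, the pool with the lower Ywhaz level, 8 of the 31 genes (25.8%) lay more than 0.5 below the control mean on the log2 scale and 0 lay more than 0.5 above it. Over all genes tested the shares in that library were 10.9% below and 8.95% above. In knockout library 2, 1 gene (3.23%), Gstp1, lay more than 0.5 below and 5 (16.1%) lay above, against 4.44% and 16.0% of all genes tested. The 5 genes high in library 2 were Keap1, Gclc, Gclm, Gsr and Txnrd2. The 8 genes low in library 1 were Nfe2l2, Cat, Prdx6, Srxn1, Gstp1, Gsta4, Txnrd1 and G6pdx. Of these, Srxn1 stood at −0.98 in library 1 and −0.04 in library 2, Gsta4 at −0.87 and −0.01, Txnrd1 at −0.72 and 0.04, Prdx6 at −0.63 and −0.08, and Nfe2l2 at −0.56 and −0.06. These library 2 values are also the differences without knockout library 1. Cat stood at −0.82 in library 1 and 0.45 in library 2.

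With knockout library 2 left out, 7 of the 31 genes had an unadjusted limma p under 0.05 (14.3% of all genes tested in that fit), and Gsta4 passed the threshold with a log2 fold change of −0.87 and a limma adjusted p of 0.0448 (2.15% of all genes tested passed). With knockout library 1 left out instead, Gclm, Gsr and Gstp1 had an unadjusted limma p under 0.05 (13.8% of all genes tested) and none passed (1.38%). Leaving out control library 1 gave 0 antioxidant genes at an unadjusted limma p under 0.05 (5.74% of all genes tested), and leaving out control library 2 gave 1, Gstp1 (8.07%), with none past the adjusted threshold in either (0.199% and 0.157%). Each of these fits leaves 1 pool in a group, assumed to vary like those of the other group. The knockout pools were farther apart than the control pools in 58.1% of the 31 genes and in 58.4% of all genes tested. The part of the Ywhaz level in these differences was not tested.

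**Figure D5:**
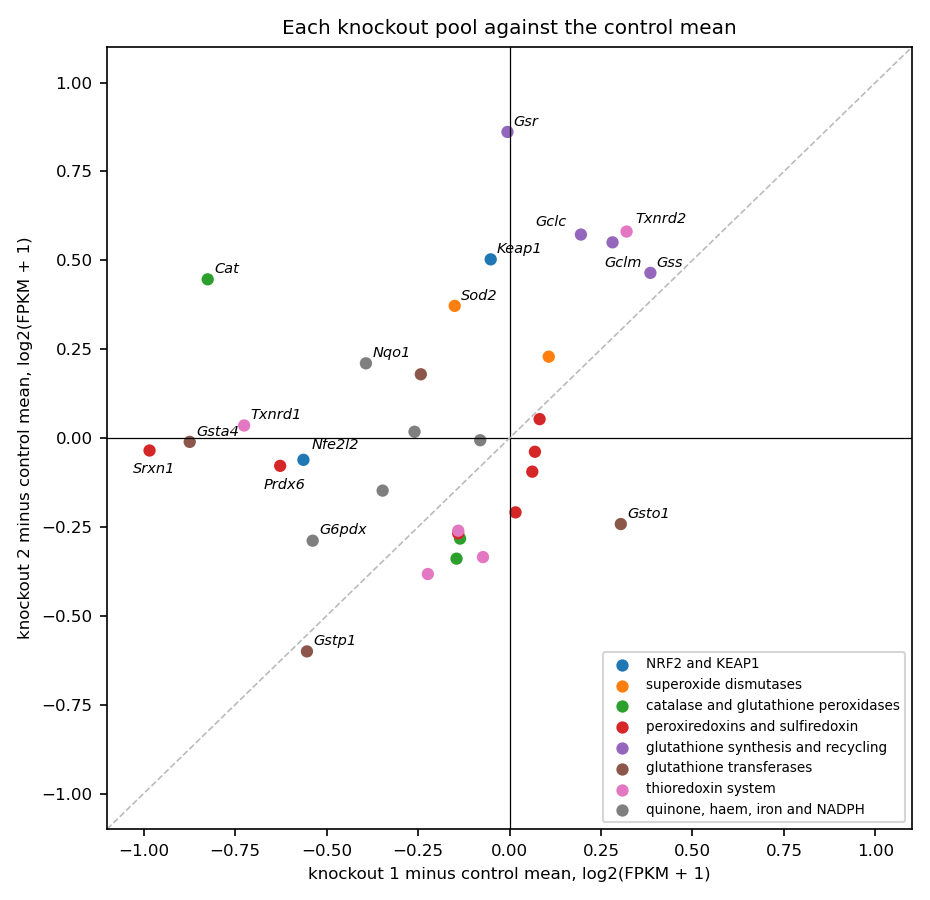
Difference of knockout pool 1 (x axis) and knockout pool 2 (y axis) from the control mean for all 32 antioxidant genes on the log2(FPKM + 1) scale, coloured by role, with the line of equal difference dashed. Gstp1 lies low in both pools (−0.55 and −0.60) and Gss high in both (0.38 and 0.46). Srxn1, Gsta4, Txnrd1, Prdx6, Nfe2l2 and Cat lie far lower in pool 1 than in pool 2 (Nfe2l2 at −0.56 and −0.06).

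Other genes of these pathways were followed as a list of 129 symbols, found in 130 rows, of which 104 were tested. Of these 104, 0 passed the threshold, 47 had a fold change above 0 and 57 below 0, and the median was −0.03. At an unadjusted limma p under 0.05 there were 8 higher and 6 lower, against 7.75% and 3.33% of all genes tested. The smallest p belonged to Gpx2, a glutathione peroxidase of epithelia, with 225 and 202 FPKM in the control pools, against 116 and 108 FPKM in the knockout pools. Both knockout values of Gpx2 were close to each other and far below control (difference −0.92 ± 0.18 SE on the log2 scale, limma adjusted p = 0.129). In the authors' deposited table its log2 fold change was −0.93 with an FDR of 0.00338, the 1 gene of the list under 0.05 there.

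Among the higher genes, Btrc, a substrate adaptor of a ubiquitin ligase that also acts on NRF2, measured 48.9 and 49.1 FPKM in the control pools, against 72.5 and 97.6 FPKM in the knockout pools (difference 0.77 ± 0.21 SE on the log2 scale, limma adjusted p = 0.259). Sephs1, a selenophosphate synthetase relative, measured 9.72 and 9.81 FPKM in the control pools, against 17.8 and 17.2 FPKM in the knockout pools (difference 0.78 ± 0.22 SE on the log2 scale, limma adjusted p = 0.269). Ccs, the copper chaperone of Sod1, measured 36.2 and 42.9 FPKM in the control pools, against 69.7 and 57.9 FPKM in the knockout pools (difference 0.68 ± 0.20 SE on the log2 scale, limma adjusted p = 0.280). Ggt1, a gamma-glutamyltransferase that breaks down extracellular glutathione, measured 3.93 and 2.24 FPKM in the control pools, against 5.28 and 7.81 FPKM in the knockout pools (difference 0.90 ± 0.30 SE on the log2 scale, limma adjusted p = 0.319). The groups of these 4 genes, chosen by their small p, did not overlap. Of the 104 tested genes of the list, 26 were higher and 21 lower in both knockout pools than in either control pool, against 27.4% and 14.0% of all genes tested.

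By group, 12 of 19 tested further glutathione transferases had a fold change below 0, with a median of −0.18, and 5 of 7 tested genes of lipid peroxidation and ferroptosis had one above 0, with a median of 0.28. In selenoprotein synthesis 5 of 11 were above 0 with a median of −0.08, in NADPH supply 6 of 11 with a median of 0.07, and in quinone, haem and iron handling 8 of 12 with a median of 0.09. Glutaredoxin and thioredoxin relatives had 7 of 17 above 0 with a median of −0.05, glutathione supply and turnover 2 of 9 with a median of −0.08, further superoxide and peroxide enzymes 3 of 8 with a median of −0.09, and NRF2 regulation 4 of 10 with a median of −0.03. No gene of these groups passed the threshold.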

How the data were processed

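The authors deposited 1 table with FPKM for each of the 4 libraries, rounded to 3 decimals, together with mean FPKM per group, the log2 of the ratio of means, a p-value and an FDR, per the file headers. Tools named in the submitters' processing notes, without roles, are HISAT2 2.1.0, StringTie 1.3.1, RSEM, DESeq2, Bowtie2 2.2.8 and fastp 0.18.0, with the build GRCm39; the tool behind the authors' p-value and the use of strand were not given in the sources used here. Since the table holds no counts, log2(FPKM + 1) was tested with limma 3.58.1 in R 4.3.3, with an intensity trend, on the group alone with 2 residual degrees of freedom. For each gene limma drew the spread toward that of genes at similar levels. The SE, intervals and p-values therefore rest on this blended spread and not on the gene's own pools alone. Testing covered the 9544 genes whose mean reached 1 FPKM, with Benjamini-Hochberg adjustment over all of them.

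Fold changes on this scale understate those of low genes. An exact permutation test of 2 against 2 cannot go below p = 0.333. The members, the lists and the rules were chosen with earlier results of these data known. Full statistics were given for the 10 members with the smallest p, the 5 with the highest mean, Nfe2l2 and Keap1, and, of the other pathway genes, the 6 with the smallest p; further members were given by values. Depth was estimated from low values of single-transcript genes over 1500 nt with an assumed fragment of 200 nt, where 73.0% to 74.5% lay within 0.1 of a whole fragment. Positions and transcripts are from GENCODE M21 on GRCm38 and promoters from RefSeq, not from the authors' build. On simulated data of the knockout and control comparison over 9544 genes, 71.8% of 2-fold and 100% of 4-fold changes were recovered, and 7.51% of calls were false. Each of 20 runs held 200 changed genes, none at the lowest levels, with independent noise drawn from the spread fitted by limma. Real pools can vary otherwise, so these shares do not tell how many real changes the comparison would find, least of all in low genes.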

Additional observations from a re-analysis of the deposited data

How the results depend on the processing

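In every alternative with all 4 libraries that was planned, 0 of the antioxidant genes and 0 of the other pathway genes passed the threshold in limma. Leaving out 1 library each gave 0 to 1 antioxidant genes and 0 to 4 other pathway genes past it, 0 to 7 antioxidant genes at an unadjusted p under 0.05, 19 to 23 whose groups did not overlap (66.5% to 74.3% of all genes, since 1 pool overlaps less readily than 2), and 15 to 205 of all genes. The other pathway genes past it were Btrc, Gpx2 and Gpx3 without knockout library 1 and Glrx, Gpx2, Gstp2 and Txndc12 without knockout library 2. The median of the antioxidant genes then ran from −0.14 to −0.01, and over the other alternatives it stayed below 0. The count over all genes, 7, was 0 without a filter and 0 after quantile normalization, 13 with TPM scaling, 4 with median-of-ratios scaling and 3 without the trend. Antioxidant genes at an unadjusted p under 0.05, 1 at first, were 2 with no filter, with median-of-ratios scaling and with quantile normalization. The shares of all genes at that p were not computed for these settings. Groups that did not overlap, 10 at first, were 6 with TPM scaling and 17 with median-of-ratios scaling. With the replicate number as a block, 38 of all genes and 0 antioxidant genes passed; the labels do not say that the numbers pair the pools, and same-numbered pools deviated in opposite directions (correlation −0.24 across genes). With the crossed replicate block, chosen after seeing the data, 475 of all genes, 1 antioxidant gene (Gstp1) and 7 other pathway genes passed. In that fit 6 antioxidant genes had an unadjusted p under 0.05, but the share of all genes at that p was not computed, so this count cannot be read as particular to them. Directions turned for Prdx1 (−0.0744) and Gsto1 (−0.0586) with median-of-ratios scaling and for Ftl1 (0.00874) with quantile normalization. Leaving out 1 library turned them within the ranges −0.0386 to 0.0694 for Prdx1, −0.242 to 0.304 for Gsto1, −0.178 to 0.0916 for Ftl1, −0.26 to 0.0176 for Fth1, −0.00567 to 0.861 for Gsr and −0.0724 to 0.524 for Keap1. The cause of these shifts was not tested.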
